A study of Homo sapiens with 6 samples.

Results

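Brachyury (BRA, the product of the T gene) is a T-BOX transcription factor that marks the primitive streak, the region of the gastrulating embryo from which mesoderm and definitive endoderm arise. It binds DNA through its T-box domain, which recognises a short consensus sequence, and its sites lie both at promoters and at distant enhancers. In differentiating human embryonic stem cells (hESCs), BRA sites called whichever signal drives differentiation can be separated from sites called under a single signal. The sites described here were called with the R&D Systems antibody (AF2085) in both media and gave no peak with the Santa Cruz antibody (sc-20109) in either.

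BRA was immunoprecipitated from H9 cells, an established hESC line, after 36 h of differentiation. All cells received 20 ng/ml FGF2 and 10 μM LY294002, an inhibitor of PI3 kinase. FLyA medium contained 100 ng/ml activin A in addition and gave endoderm progenitors, whereas FLyB medium contained 10 ng/ml BMP4 and gave mesoderm progenitors. Each medium was sequenced in 1 library per antibody, so that 4 peak lists were compared. The 2 libraries of input DNA were not used here. The lists hold the positions of peaks of 400 bp on build hg19, with no height, fold enrichment or p-value. The identity of the progenitors could not be checked against marker genes, as no expression values are part of these data.

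Sites were counted in the R&D Systems FLyB list. They were chosen by measured peak calls: an R&D Systems FLyB peak was kept when it overlapped an R&D Systems FLyA peak by at least 1 bp and overlapped no peak of either Santa Cruz list. This rule kept 6996 of the 54994 peaks in the 4 lists. Of the 23687 R&D Systems FLyB peaks, 8558 (36.1%) overlapped a FLyA peak and are called common sites. Regardless of the other medium, 88.4% of the R&D Systems FLyB peaks overlapped no Santa Cruz peak. Among the common sites, 81.7% (95% interval 80.9 to 82.6%) had none. These shares follow from the rule and are a description. The Santa Cruz lists are short, with 2436 peaks in FLyA and 3007 in FLyB. The study describes their libraries as weaker in signal over noise and lower in unique reads. It also reports a high correlation of BRA binding between the antibodies in each medium. The study treats the antibodies as replicate experiments, so that antibody and experiment cannot be told apart. A site without a Santa Cruz peak is therefore not shown to be free of signal with that antibody. Nor is its R&D Systems peak backed by a call with a second antibody. A site is described below as missed when no Santa Cruz peak was called, and BRA occupancy there was not checked. Exact (Clopper-Pearson) intervals on shares and Newcombe intervals on differences of shares cover counting error only. They treat neighbouring sites as independent, and no test across replicates was possible with 1 library per medium and antibody.

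The remaining 1562 common sites overlapped a Santa Cruz peak and form the closest set for comparison. Of these, 1025 overlapped a Santa Cruz peak in FLyB only, 313 in FLyA only and 224 in both media. FLyB-only R&D Systems peaks lacked a Santa Cruz peak more often than common sites did, in 92.1% (91.7 to 92.5%) of 15129 peaks. The missed share of common sites was 10.3 percentage points lower than theirs (difference -10.3, interval -11.3 to -9.43). Of the 17320 FLyA-only R&D Systems peaks, 98.3% (98.1 to 98.5%) had no Santa Cruz peak. Common sites were thus the class in which the Santa Cruz antibody missed the smallest share, yet it left out more than 4 in 5 of them. Class and missed call are both part of the rule, so this ranking is a description. Common sites were called in both media, and a Santa Cruz peak of either medium could mark them. Their missed share was 85.4% with the Santa Cruz FLyB list alone and 93.7% with the FLyA list alone. The other classes were not recounted list by list.

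The edges of the rule lie close to the sites next to them. In 51 sites the FLyA and FLyB peaks overlapped by 20 bp or less, down to 1 bp at chr11:57249855-57250254. Just outside, 34 FLyB peaks with no Santa Cruz peak had a FLyA peak that began 0 to 20 bp beyond their edge. A Santa Cruz peak lay less than 100 bp beyond the edge of 7 sites. The nearest was the site at chr11:86389332-86389731, whose midpoint was 407 bp from that of a Santa Cruz FLyA peak. Conversely, 3 common sites were left out because of a Santa Cruz overlap of 20 bp or less, the smallest being 12 bp at chr17:39949937-39950336. Few sites therefore lay within these margins of the rule. A wider margin mattered more, as 6461 sites remained when at least 200 bp of overlap between the media was required. Among the 6996 sites, 10 overlapped 2 FLyA peaks and 26 overlapped another site of the set.

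Sites without a Santa Cruz peak were called at less similar positions in the 2 media. The distance between the FLyA and the FLyB midpoint of a site is limited to less than 400 bp in all common sites but is not otherwise used by the rule. Its median was 40 bp (quartiles 18 and 80 bp) in the sites without a Santa Cruz peak and 29 bp (12 and 58 bp) in those with one. Midpoints lay at most 50 bp apart in 58.5% (57.4 to 59.7%) of the former and 69.8% (67.4 to 72.1%) of the latter. The difference was -11.2 percentage points (interval -13.8 to -8.66). At the other end, midpoints were over 200 bp apart in 7.65% (7.04 to 8.29%) and 4.55% (3.57 to 5.70%), a difference of 3.10 percentage points (1.81 to 4.23). The FLyA midpoint lay towards higher coordinates in 50.2% (49.0 to 51.4%) of the sites whose midpoints differed, so the displacement had no preferred side along the chromosome. The share within 50 bp was lower in the sites without a Santa Cruz peak on 22 of the 23 chromosomes that held at least 20 common sites, the exception being chromosome 13. There the shares were 56.8% and 56.4%.

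Read the other way, the share of common sites missed by the Santa Cruz antibody was larger where the media differed more in position. With midpoints 0 to 25 bp apart, 2373 of 3079 common sites (77.1%, 75.5 to 78.5%) had no Santa Cruz peak. The share was 81.8% (80.0 to 83.4%) at 26 to 50 bp and 84.5% (82.8 to 86.1%) at 51 to 100 bp. At 101 to 200 bp it was 87.6% (85.3 to 89.7%), which could not be separated from the 88.3% (85.5 to 90.7%) found at 201 to 399 bp.

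**Figure D1:**
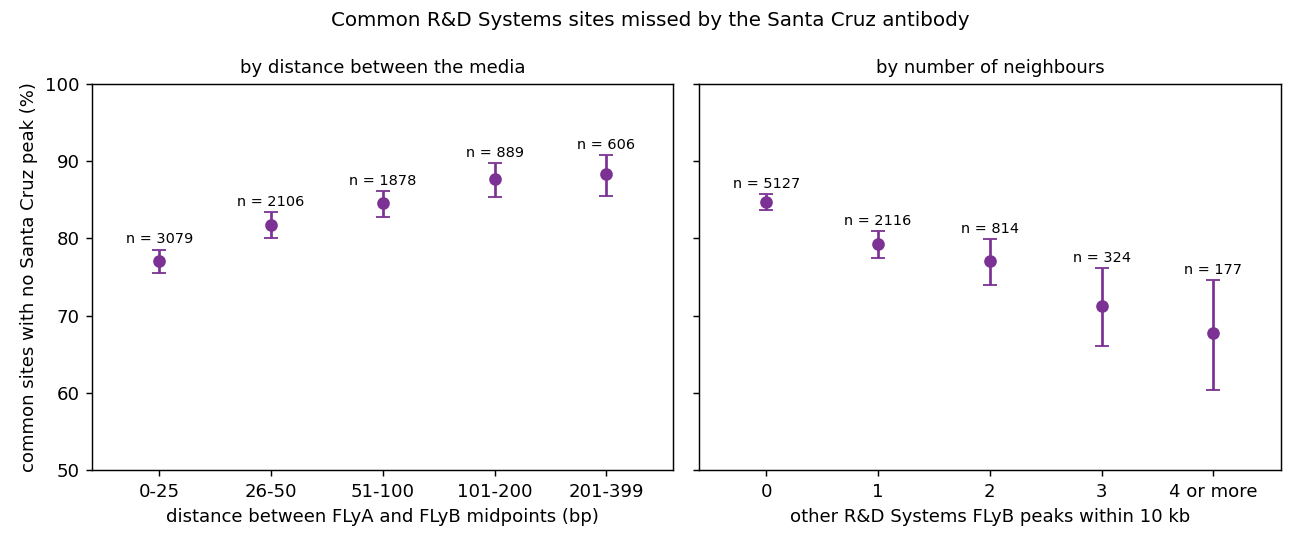
Share of common R&D Systems sites with no Santa Cruz peak (%, points, with exact 95% intervals as bars) by the distance between FLyA and FLyB midpoints in bp (left) and by the number of other R&D Systems FLyB peaks within 10 kb (right). The share was 77.1% at 0 to 25 bp and 88.3% at 201 to 399 bp, and went from 84.7% with no neighbour to 67.8% with 4 or more. The y axis starts at 50%.

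The sites also stood more alone. Another R&D Systems FLyB peak lay within 10 kb of 2654 of the 6996 sites (37.9%, 36.8 to 39.1%), against 777 of the 1562 common sites with a Santa Cruz peak (49.7%, 47.2 to 52.3%). The difference was -11.8 percentage points (-14.5 to -9.08), and it had the same direction on all 23 chromosomes with at least 20 common sites. Within 5 kb the shares differed by -10.03 percentage points (-12.7 to -7.42) and within 50 kb by -8.62 (-10.8 to -6.29). The difference was smaller, at -6.55 percentage points (-9.26 to -3.85), when sites and neighbours were counted in the FLyA list, and was -7.29 (-11.7 to -2.97) when the Santa Cruz FLyA list alone defined a missed site. When FLyA-only peaks were counted too, 3427 sites (49.0%, 47.8 to 50.2%) had no further R&D Systems peak of either medium within 10 kb beside their own FLyA partner. This was 10.2 percentage points (7.48 to 12.8) more than among common sites with a Santa Cruz peak.

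The missed share was lower with more neighbours. It was 84.7% (83.7 to 85.7%) of 5127 common sites with no other FLyB peak within 10 kb and 79.2% (77.4 to 80.9%) of 2116 sites with 1. With 2, 3 and 4 or more neighbours it was 77.0% (74.0 to 79.9%), 71.3% (66.0 to 76.2%) and 67.8% (60.4 to 74.6%), where the intervals of adjacent steps overlap.

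Distance between the media and isolation each went with the missed share when common sites were split into 2 broad classes of the other. Among sites with midpoints at most 50 bp apart, 82.1% (80.8 to 83.5%) of those without a FLyB neighbour and 74.3% (72.3 to 76.1%) of those with 1 or more had no Santa Cruz peak. Among sites with midpoints more than 50 bp apart, the shares were 88.6% (87.1 to 89.9%) and 82.1% (80.0 to 84.1%). Of these 4 classes, the one most often missed was thus that of solitary sites with midpoints further apart, and the one least often missed that of sites with neighbours and closer midpoints. Peak height was not part of the lists, and its part in either pattern was not tested.

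The kind of neighbour separated the sites from those found in FLyB with the Santa Cruz antibody. FLyB-only and FLyA-only peaks lay within 10 kb of 25.9% (24.9 to 26.9%) and 23.9% (22.9 to 24.9%) of the sites without a Santa Cruz peak. Common sites with a Santa Cruz peak in FLyB alone had a FLyB-only neighbour in 39.3% (36.3 to 42.4%), which was 13.4 percentage points more (10.3 to 16.6). For FLyA-only neighbours these 1025 sites differed from the sites without a Santa Cruz peak by 0.83 percentage points, with an interval of -1.91 to 3.73 that includes 0.

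The 313 common sites with a Santa Cruz peak in FLyA alone showed another surrounding. A FLyA-only peak lay within 10 kb of 30.7% (25.6 to 36.1%) of them, 6.81 percentage points (1.86 to 12.2) more than of the sites without a Santa Cruz peak. Their share with a FLyB-only neighbour was 22.7% (18.2 to 27.7%), and its difference of -3.20 percentage points had an interval of -7.62 to 1.85. Compared directly, sites found in FLyB alone had a FLyB-only neighbour more often than sites found in FLyA alone, by 16.6 percentage points (10.9 to 21.9). They had a FLyA-only neighbour less often (-5.99, -11.9 to -0.42). The 224 sites found in both media had midpoints at most 50 bp apart in 78.6% (72.6 to 83.8%) and a FLyB neighbour in 58.9% (52.2 to 65.4%). These were 20.0 (14.1 to 25.04) and 21.0 (14.4 to 27.3) percentage points more than in the sites without a Santa Cruz peak.

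FLyB-only R&D Systems peaks, which the rule leaves out, were compared in the same way. Another FLyB peak lay within 10 kb of 40.4% (39.6 to 41.2%) of the 13933 without a Santa Cruz peak and of 46.9% (44.0 to 49.8%) of the 1196 with one, a difference of -6.51 percentage points (-9.46 to -3.58). Among FLyA-only peaks, another FLyA peak lay within 10 kb of 30.6% (29.9 to 31.3%) and 41.4% (35.7 to 47.3%), a difference of -10.9 percentage points (-16.6 to -5.31). Isolation of the peaks without a Santa Cruz call was therefore not particular to the common sites. Whether the size of the difference varies between these classes was not tested. Compared with FLyB-only peaks without a Santa Cruz peak, the sites were near a FLyA-only peak more often (by 5.63 percentage points, 4.45 to 6.82) and near a FLyB-only peak less often (-4.71, -5.98 to -3.42).

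**Figure D2:**
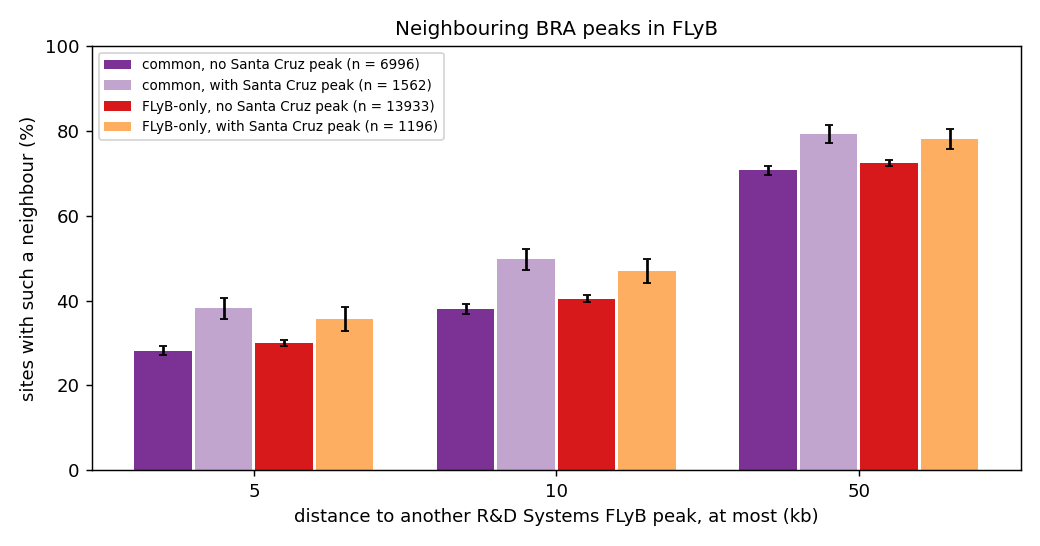
Share of R&D Systems FLyB peaks (%, bars, with exact 95% intervals) that have another peak of the same list within 5, 10 or 50 kb, for common and FLyB-only peaks with and without a Santa Cruz peak. At 10 kb the bars stand at 37.9% and 49.7% for common sites without and with a Santa Cruz peak, and at 40.4% and 46.9% for FLyB-only peaks.

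Most sites without a Santa Cruz peak lay more than 100 kb from the nearest one. The Santa Cruz lists are short, and the distances were not compared with those of random positions. Counted between midpoints, the nearest Santa Cruz peak of either medium was at a median of 140.6 kb (quartiles 42.01 and 341.8 kb). A Santa Cruz peak lay within 1 kb of 90 sites (1.29%, 1.04 to 1.58%), within 10 kb of 616 (8.81%, 8.15 to 9.49%) and within 100 kb of 2897 (41.4%, 40.3 to 42.6%). The FLyB list supplied a peak within 10 kb of 448 sites and the shorter FLyA list within 10 kb of 245.

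R&D Systems peaks of a single medium that lacked a Santa Cruz peak stood on either side of these values. FLyB-only peaks had a Santa Cruz peak within 10 kb in 10.4% (9.92 to 10.9%) and FLyA-only peaks in 5.92% (5.57 to 6.28%). At this distance the common sites fell below the FLyB-only peaks, with a difference of -1.62 percentage points (-2.44 to -0.77), and above the FLyA-only peaks, with 2.89 (2.15 to 3.65). Within 1 kb the difference from FLyB-only peaks was -0.35 percentage points, with an interval of -0.68 to 0.003 that includes 0. Overlapping Santa Cruz peaks were excluded from each of these classes by definition, so the distances are a description.

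**Figure D3:**
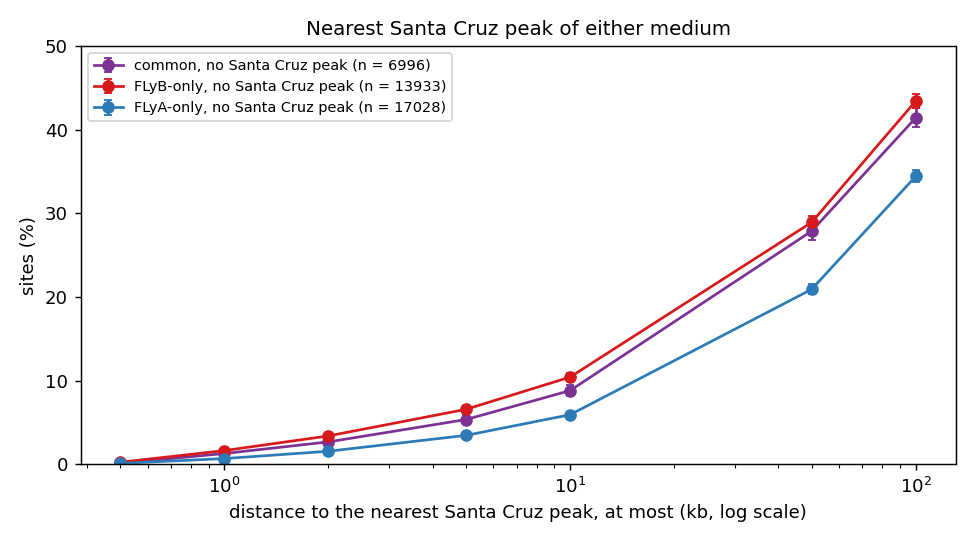
Share of sites (%, points with exact 95% intervals) that have a Santa Cruz peak of either medium within a given distance in kb (log scale), for common, FLyB-only and FLyA-only R&D Systems peaks that lacked a Santa Cruz call. At 100 kb the common sites reach 41.4%, between 34.4% for the FLyA-only and 43.4% for the FLyB-only peaks.

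Missed and found R&D Systems peaks also occurred side by side. Of the 2654 sites with another FLyB peak within 10 kb, 457 (17.2%, 15.8 to 18.7%) had a neighbour that did overlap a Santa Cruz peak, and 289 of these had it within 5 kb. Among the 777 common sites with a Santa Cruz peak and a neighbour, the neighbour was itself found with the Santa Cruz antibody in 216 (27.8%, 24.7 to 31.1%). The difference was -10.6 percentage points (-14.1 to -7.20). Found sites thus had at least 1 found neighbour more often than missed sites did, although 457 missed sites shared a neighbourhood with a found peak. Found common sites also had more FLyB neighbours within 10 kb, with a mean of 0.87 per site against 0.59. The difference of -10.6 percentage points was not adjusted for the number of neighbours and is a description. Of the 5628 FLyB-only peaks without a Santa Cruz peak but with a FLyB neighbour, 1167 (20.7%, 19.7 to 21.8%) had a found neighbour. Missed peaks beside found ones were therefore not particular to the common sites.

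Sites without a Santa Cruz peak were present on every chromosome except the mitochondrial one, with 1 on chromosome Y and 652 on chromosome 1. On the 23 chromosomes with at least 20 common sites, the missed share ran from 77.4% (71.6 to 82.6%) on chromosome 18 to 91.2% (86.7 to 94.5%) on chromosome 19. Chromosome 19 stood apart, with 207 of 227 common sites lacking a Santa Cruz peak. On all other chromosomes together the share was 81.5% (80.6 to 82.3%), a difference of 9.70 percentage points (5.22 to 12.8). Chromosome 19 was picked as the highest of 23, and this interval does not allow for that choice. Among FLyB-only peaks, which did not enter that choice, 95.1% (92.1 to 97.2%) on chromosome 19 and 92.0% (91.6 to 92.5%) elsewhere had no Santa Cruz peak, a difference of 3.10 percentage points (0.06 to 5.05). The next highest missed shares, 85.3% (81.6 to 88.5%) on chromosome 12 and 85.1% (79.9 to 89.4%) on chromosome 20, had intervals that include the share of all common sites.

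**Figure D4:**
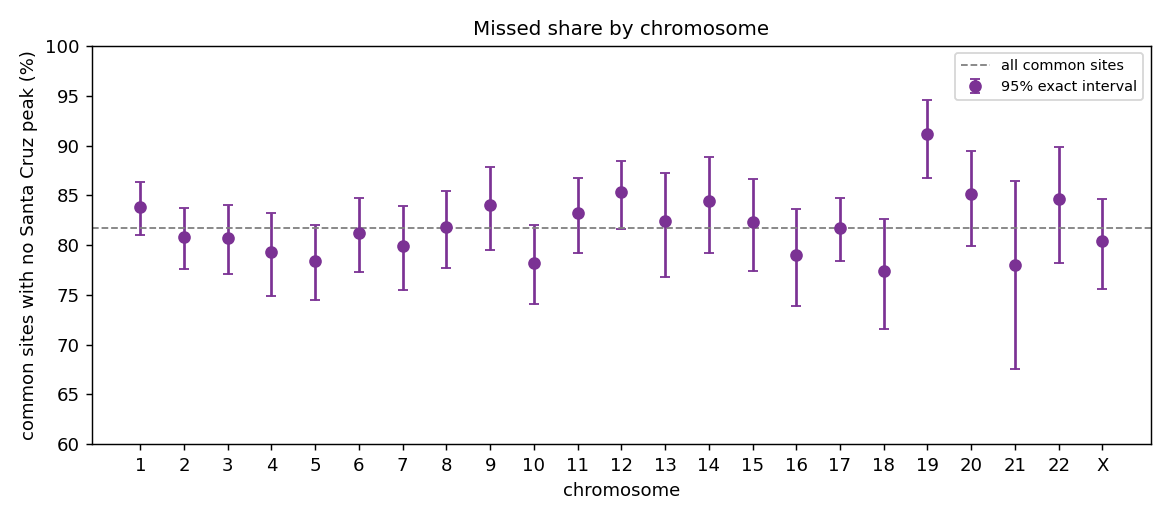
Share of common R&D Systems sites with no Santa Cruz peak (%, points with exact 95% intervals) on each chromosome with at least 20 common sites, with the share of all common sites as a dashed line at 81.7%. Chromosome 19 lies highest at 91.2%, and its interval of 86.7 to 94.5% does not reach the line. The y axis starts at 60%.

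By number, chromosome 17 held 501 of the sites (7.16%) on 2.75% of the length spanned by peaks. It held a like share of all R&D Systems FLyB peaks, 1658 of 23687 (interval 6.68 to 7.33%), and of FLyB-only peaks (6.91%, 6.51 to 7.32%). Sites without a Santa Cruz peak numbered 6.18 per Mb there, 2.60 times the 2.38 per Mb over all chromosomes. Chromosome 22 followed with 4.09 and chromosome 19 with 3.52 per Mb, and chromosome 4 had 1.58. The missed share of common sites on chromosome 17 was 81.7% (78.4 to 84.7%). Of the 23 chromosomes, chromosome 17 had the largest share of sites with a neighbour, another FLyB peak lying within 10 kb of 54.3%.

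Along the chromosomes, consecutive sites lay a median of 190.2 kb apart (quartiles 53.3 and 504.8 kb). When sites at most 10 kb apart were joined, they formed 6372 groups, of which 5840 held a single site, 455 held 2 and 77 held 3 or more. The larger groups accounted for 246 sites (3.52%, 3.10 to 3.97%). The most populous groups were found on chromosome 5, with 6 sites in 19.7 kb at chr5:73832448-73852189, and on chromosome 16, with 5 sites in 18.3 kb at chr16:85600618-85618944.

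Windows were ranked by the number of sites without a Santa Cruz peak, with windows of 100 kb and 1 Mb counted from the start of each chromosome. Of the 5415 windows of 100 kb that held a site, 4266 held 1 and 22 held 5 or more, and 89.3% contained no common site with a Santa Cruz peak. The 10 leading windows held 60 sites against 3 common sites with a Santa Cruz peak. The ranking itself favours this excess. Over all chromosomes, 18.3% of the common sites had a Santa Cruz peak. No Santa Cruz peak of any kind fell in 5 of these 10 windows. The share of all 100 kb windows without a Santa Cruz peak was not counted, so these 5 are a description. The tenth place was shared by 13 windows with 5 sites each and went to the first of them in genome order.

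The leading window of 100 kb, chr17:800001-900000, held 7 sites, 3 FLyB-only and 1 FLyA-only R&D Systems peaks and no Santa Cruz peak. Its sites began at 801209, 831018, 836688, 853224, 855202, 868766 and 899714. Their FLyA and FLyB midpoints were 32, 204, 23, 311, 8, 31 and 172 bp apart, in that order. In this window the midpoints of the media were thus more than 100 bp apart at 3 of the 7 sites. The FLyA peak at the last of the 7 also overlapped a site of the adjoining window. The nearest Santa Cruz peak, from the FLyB list, was 49.1 kb from the last site and 147.7 kb from the first.

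At chr1:27800001-27900000, 6 sites without a Santa Cruz peak stood beside 1 common site with one. The last 2 of them, at chr1:27896199-27896598 and chr1:27898552-27898951, lay 1.14 and 1.21 kb from a Santa Cruz FLyB peak. Both had a FLyA partner with a midpoint 34 and 63 bp away, respectively. Sites called with the R&D Systems antibody in both media therefore flanked a site called with both antibodies in FLyB at close range.

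The window chr5:73800001-73900000 contains the group of 6 sites on chromosome 5. They began at 73832448, 73833446, 73839229, 73840651, 73845227 and 73851790, with FLyA and FLyB midpoints 66, 1, 27, 63, 5 and 5 bp apart. The midpoints thus coincided to within 5 bp at 3 of the 6 sites and were more than 50 bp apart at 2. The only Santa Cruz peaks in the window, 1 in each medium, fell on 1 common site and were 20.4 kb from the nearest of the 6 sites in FLyA and 20.6 kb in FLyB.

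**Figure D5:**
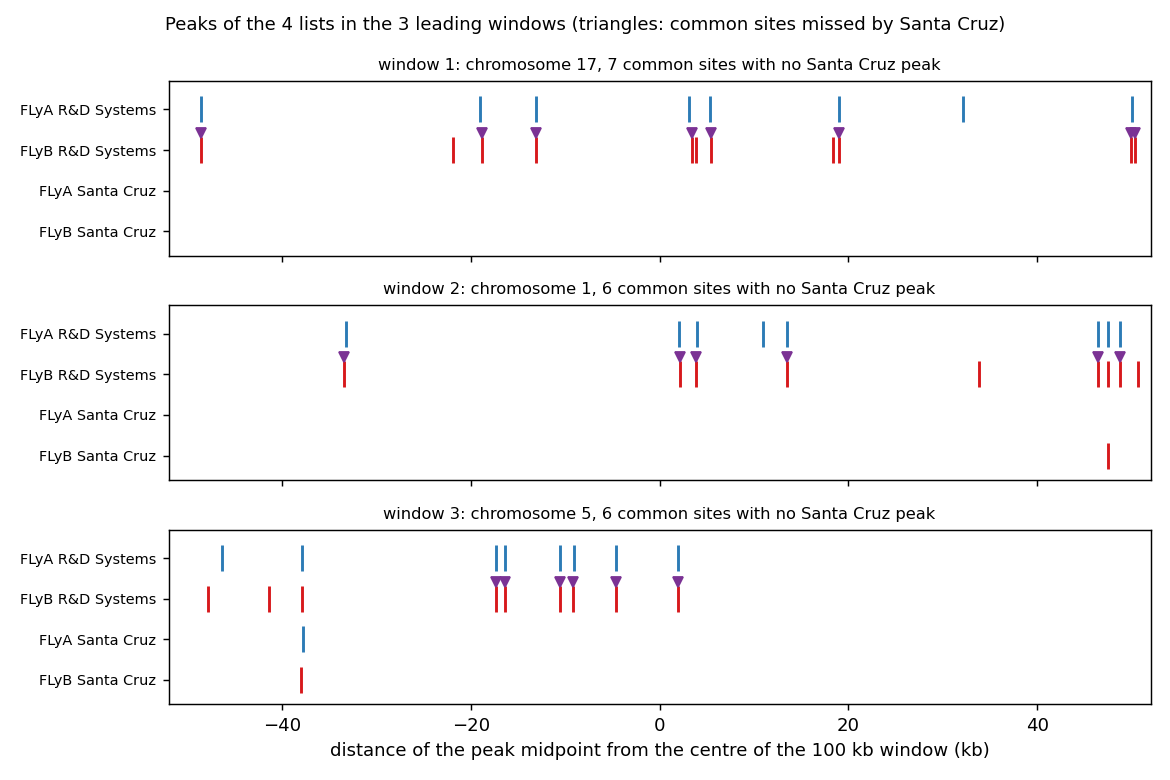
Midpoints of the peaks of the 4 lists (ticks, FLyA in blue and FLyB in red) in the 3 windows of 100 kb with the most common sites without a Santa Cruz peak, by distance from the window's centre in kb. Triangles mark the 7, 6 and 6 such sites, and 1 more at 50.4 kb in the first panel that belongs to the adjoining window. The Santa Cruz rows are empty in the first window and hold 1 FLyB peak in the second and 1 peak of each medium in the third.

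Among the next windows, chr13:100300001-100400000 held 6 sites, 3 FLyB-only and 4 FLyA-only peaks. Its sites were between 238.0 and 310.0 kb from the nearest Santa Cruz peak, the farthest of the 10 windows. At chr16:85600001-85700000, 6 sites were accompanied by 7 FLyB-only and 2 FLyA-only peaks. Here 2 Santa Cruz FLyB peaks lay between the sites without touching a common site, and the nearest site was 1.78 kb away.

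The window chr17:71300001-71400000 held 3 Santa Cruz FLyA peaks, none in FLyB and no common site with a Santa Cruz peak. Its 6 sites were 4.70 to 11.6 kb from a Santa Cruz FLyA peak. The windows chr17:43200001-43300000 and chr17:75400001-75500000 held 6 sites each and no Santa Cruz peak, with 4 and 8 FLyB-only peaks and 0 and 1 FLyA-only peaks. At chr22:42700001-42800000, 6 sites stood beside 7 FLyB-only peaks, 1 FLyA-only peak and 1 common site with a Santa Cruz FLyB peak. The window chr1:113300001-113400000 held 5 sites and 2 FLyA-only peaks but no FLyB-only peak.

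At the scale of 1 Mb, 2257 windows held a site, with a median of 2, and 60.3% of them had no common site with a Santa Cruz peak. The leading window was chr17:7000001-8000000, with 19 sites, 2 common sites with a Santa Cruz peak, and 18 FLyB-only and 18 FLyA-only peaks. Chromosome 17 supplied 6 of the 10 leading windows, the others of which began at 73000001, 42000001, 46000001, 75000001 and 38000001 and held 16, 15, 15, 15 and 14 sites. In chr17:46000001-47000000 and chr17:75000001-76000000, FLyB-only peaks (35 and 36) were more numerous than FLyA-only peaks (16 and 9).

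Away from chromosome 17, chr16:85000001-86000000 held 15 sites with 28 FLyB-only and 9 FLyA-only peaks. The window chr15:74000001-75000000 held 14 sites and no common site with a Santa Cruz peak. In chr22:42000001-43000000, 14 sites stood with 13 FLyB-only and 13 FLyA-only peaks, and chr2:85000001-86000000 held 13 sites, a count shared by 4 windows. The 10 windows held 150 sites (2.14% of the set) and 17 common sites with a Santa Cruz peak, and each contained at least 1 Santa Cruz peak. Here too the ranking favours sites without a Santa Cruz peak, and the share of all windows with a Santa Cruz peak was not counted. Genes were not assigned to sites or windows, since an annotation of build hg19 was not used here.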

How the data were processed

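BRA ChIP-seq libraries were read on an Illumina Genome Analyzer II. According to the submitters' processing notes, reads were aligned with Bowtie 0.12.7 on build hg19, and the methods name MACS as the peak finder. The authors deposited each peak as a position only. A MACS threshold of 1e-12 stands in the header of each Santa Cruz list, whereas the threshold used for the R&D Systems lists, the treatment of duplicate reads and the control used for each list are not given in the sources used here. Both antibodies may share the input of a medium. Different thresholds could change which sites count as missed, as could the lower unique read counts that the study describes for the Santa Cruz libraries. Read numbers are not part of the lists.

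Overlaps, distances between midpoints and neighbours were computed with Python 3.11.15, NumPy 2.4.6, SciPy 1.17.1 and pandas 2.3.3, checked with bedtools 2.31.1 and tested on simulated data. Figures were drawn with matplotlib 3.10.9. Shares have exact 95% intervals and differences of shares Newcombe intervals. The sites, comparisons and windows were chosen with earlier results of these data known. The windows described are, by rule, the 10 of 100 kb and the 10 of 1 Mb with the most sites, with ties in genome order. The planned motif, gene and start-site results and the printing of sequences needed hg19 sequence or annotation and were not run. No Santa Cruz library was left out of the choice of sites except in the alternatives.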

Additional observations from a re-analysis of the deposited data

How the results depend on the processing

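Under the 12 alternatives, 36 values were recomputed, and no difference changed direction. Counts and missed shares are among these values and have no direction to change. Of the 36 values, 27 stayed within the 95% interval of the reported value or, for counts, within 1.5 times the reported count. A count could not pass the upper of these limits, as it is bounded by the 8558 common sites. The number of sites stayed between 6380 and 8021. The missed share moved to 74.6% when no Santa Cruz peak was allowed within 10 kb, to 85.4% with the Santa Cruz FLyB list alone and to 93.7% with the FLyA list alone, the last 2 because fewer peaks could mark a site. With no Santa Cruz peak within 10 kb, the difference in midpoints at most 50 bp apart was -7.97 percentage points. The difference in sites with a FLyB neighbour was then -26.2, since this setting itself selects for isolation. That difference was -14.6 with the Santa Cruz FLyB list alone, -7.29 with the FLyA list alone, -6.55 with sites and neighbours counted in the FLyA list and -8.62 within 50 kb. The cause was not tested. Leaving out chromosome 17 and restricting either comparison to sites of 1 class of the other measure were chosen after seeing the data. The alternatives for motifs, genes and start sites were not run. No paired analysis was possible because the results are shares of sites and come from no test across libraries. The antibodies pair within a medium, but the rule itself contrasts them.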
